A study of Mus musculus with 4 samples.

Results

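The levels of 10 genes of the megakaryocyte and platelet lineage were followed in 4 RNA-seq libraries. The genes are Pf4, Ppbp, Vwf, Itga2b, Itgb3, Gp9, Gp1bb, Clec1b, Treml1 and Nfe2. They were chosen by symbol as well-known genes of this lineage, and all 10 are among the 23284 gene symbols of the deposited tables. Donor cells were LSK cells (Lin- Sca1+ c-Kit+), a marrow population rich in stem and early progenitor cells, from CAG-EGFP mice, in which the ubiquitous CAG promoter drives EGFP. Each wild-type recipient received 100000 donor cells. The 2 control recipients had no treatment, and the 2 others had been given 5-fluorouracil (5-FU, a pyrimidine analog that kills dividing cells) at 200 mg/kg 2 days before the transplant. EGFP+ cells were sorted from the marrow of each recipient 24 h after the transplant, with 1 library per recipient. Recipient age is not given in the labels, nor whether donor cells came from 1 pool. The comparison asks how EGFP+ cells from a 5-FU-treated marrow differ from those of an untreated marrow.

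Megakaryocytes are the large marrow cells that shed platelets. They arise from stem and progenitor cells under the hormone thrombopoietin, and some stem cells already transcribe genes of the platelet program. Platelets bind von Willebrand factor through the GPIb-IX-V complex and fibrinogen through the integrin αIIbβ3, and release chemokines from their granules once activated. Several of these genes are also read in other cells: Vwf in endothelium, and Pf4 and Clec1b in some macrophages.

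The sorted cells held transcripts of marker genes of stem and progenitor cells and of other cells. Kit ranged from 65.5 to 102.8 FPKM, Cd34 from 115.9 to 264.3 and Cd48 from 274.7 to 364.7. These are the 3 most abundant of the 10 stem and progenitor markers listed, and Slamf1 and Fgd5 stayed below 1 FPKM in every library. The macrophage complement gene C1qb had 1718 to 4587 FPKM in the same libraries. The lineage itself was represented unevenly: Pf4, Nfe2 and Clec1b were well above 10 FPKM in all 4 libraries. Of genes known from mature megakaryocytes and platelets, Gp6 was listed at 0 in all 4 libraries and Tubb1 reached at most 1.15 FPKM. Others of that kind were present, with Gp9 at 7.25 to 14.9 FPKM and Gp5 at 1.18 to 5.06.

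Of the 10 genes 8 could be tested, and 1 of them changed between the groups. Clec1b was lower by 2.41-fold in cells from 5-FU-treated recipients, while Pf4 and Nfe2, the most abundant of the 10, stayed within narrow ranges over all 4 libraries. Values are FPKM, fragments per kilobase of transcript and relative to a library size scaled in the submitters' processing, so that levels can be compared between genes. A gene was tested when it reached 1 FPKM in at least 2 of the 4 libraries, and 8 of the 10 did. In limma, fitted on log2(FPKM + 1) over all 11496 tested genes, 1 of the 8 was lower and 0 were higher at a Benjamini-Hochberg adjusted p under 0.05. At an unadjusted p under 0.05 the numbers were also 1 and 0. Of all 11496 tested genes 3607 had an unadjusted p under 0.05 in limma, in either direction. Of all tested genes 4.67% were called lower, 8.23% higher and 12.9% either way. Where a pair of values is given for a group, recipient 1 comes first. Fold changes below are on the log2(FPKM + 1) scale, which understates changes of genes at low levels. An exact permutation test of 2 against 2 libraries can reach no p below 0.333 and was not applied. In such bulk samples, fewer cells of a type and less RNA per cell cannot be told apart.

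The sequences before the start sites of Pf4 and Clec1b are shown because these are the abundant gene that did not pass the test and the gene that did. Each is the 250 bases before the RefSeq start on the plus strand (GRCm38.p6), for Pf4 at chr5:90772185-90772434 and for Clec1b at chr6:129397047-129397296. Capitals mark GATAA (the core of GATA factor sites) and GGAAG (the core of many ETS factor sites), searched on both strands, so that TTATC and CTTCC are capitals as well.
Pf4: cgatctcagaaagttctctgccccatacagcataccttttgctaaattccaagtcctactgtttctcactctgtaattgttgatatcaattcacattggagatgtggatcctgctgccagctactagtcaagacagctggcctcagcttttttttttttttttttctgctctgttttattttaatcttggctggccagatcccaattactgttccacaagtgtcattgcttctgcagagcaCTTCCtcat
Clec1b: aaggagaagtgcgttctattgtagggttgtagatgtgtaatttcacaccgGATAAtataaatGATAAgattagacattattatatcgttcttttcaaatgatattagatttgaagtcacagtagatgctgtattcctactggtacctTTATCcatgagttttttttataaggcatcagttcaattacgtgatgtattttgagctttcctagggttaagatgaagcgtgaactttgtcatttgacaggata
The Clec1b stretch held 3 GATAA and 0 GGAAG matches, and the Pf4 stretch held 0 and 1. In the full 300-base windows, which run on past the start, Clec1b had 4 GATAA and 0 GGAAG matches and Pf4 had 1 of each. Of the 10 genes 7 have such a window in the table, and 3 of the 7 hold GATAA and 6 hold GGAAG. Among all 32851 windows the shares are 25.4% and 71.4%. A match describes the letters and is not a binding site.

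The order of the 10 genes was much alike in both groups. In control recipients Pf4 stood first at 90.6 ± 6.51 FPKM (mean ± SD, n = 2), followed by Nfe2 at 74.8 ± 12, Clec1b at 48.1 ± 7.11, Gp9 at 12.7 ± 3.04 and Itga2b at 12.4 ± 2.32. The ranges of Gp9 and Itga2b overlapped, and those of Pf4, Nfe2, Clec1b and Gp9, in that order, did not. The other 5, Treml1, Ppbp, Gp1bb, Vwf and Itgb3, lay below 2.2 FPKM in every library, with ranges that overlapped between neighbours in the order. The same 5 genes led in the 5-FU pair, in the same order.

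**Figure D1:**
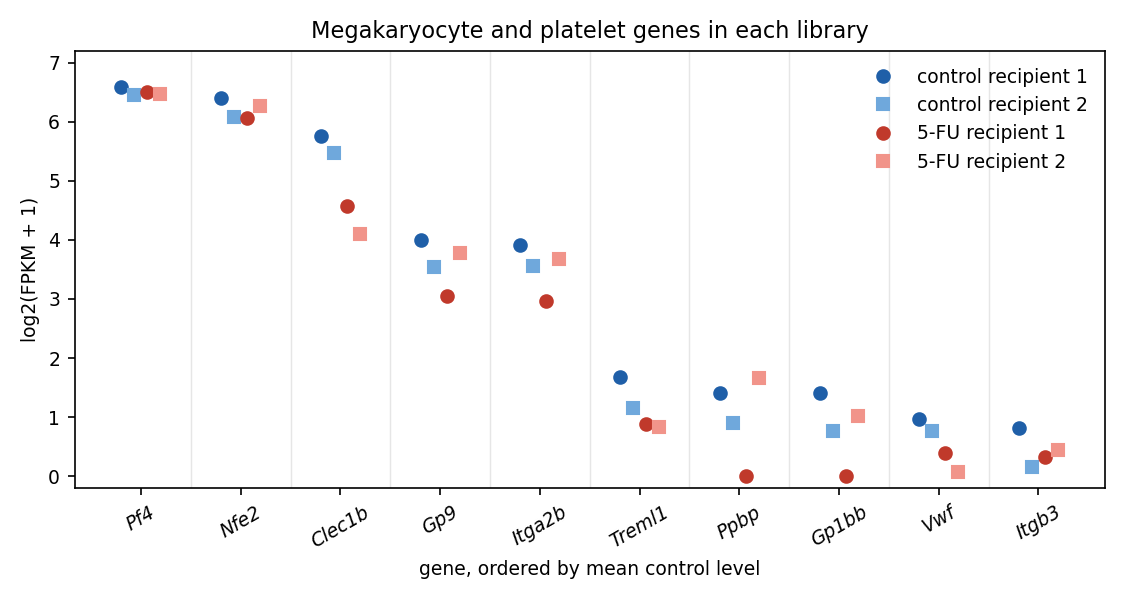
Level of each of the 10 genes as log2(FPKM + 1) (y axis) in the 2 control and 2 5-FU libraries, with genes on the x axis ordered by mean control level and 1 point per library. Clec1b is the gene among the 5 abundant ones whose red 5-FU points lie wholly below its blue control points, and Ppbp and Gp1bb are listed at 0 in 5-FU recipient 1.

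Pf4 and Ppbp encode CXC chemokines of the platelet alpha granule, platelet factor 4 and the precursor of platelet basic protein. The genes are neighbours on chromosome 5 in GRCm38, Ppbp at 90768518 to 90770063 and Pf4 at 90772435 to 90773383, with 2371 bp between them. Pf4 had 95.2 and 86.0 FPKM in control animals 1 and 2, and 89.8 and 87.8 in 5-FU animals 1 and 2. The groups overlapped, and the highest value was 1.11 times the lowest. For 25.4% of tested genes the highest value was at most 1.5 times the lowest. Pf4 lay above 89.6% of tested genes by mean level. Its log2 fold change was −0.03 (SE 0.18, adjusted p = 0.93 in limma), and the 95% interval of the fold runs from 0.73 to 1.32. Ppbp had 1.64 and 0.862 FPKM in the control pair and 2.17 in 5-FU recipient 2, and was listed at 0 in 5-FU recipient 1. The 5-FU pair thus held both the highest and the lowest value, and the log2 fold change of −0.32 (SE 0.55, adjusted p = 0.73 in limma) has a wide fold interval of 0.331 to 1.95. At the depth of these libraries the values of Ppbp correspond to roughly 12.6 and 6.8 reads in the control pair and 21.6 in 5-FU recipient 2.

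Vwf encodes von Willebrand factor, the large adhesive protein stored in platelet granules and in endothelium. It spans chromosome 6 at 125546774 to 125686679. It had 0.968 and 0.698 FPKM in the control pair and 0.310 and 0.0463 in 5-FU animals 1 and 2. Both 5-FU libraries were below both control libraries. Vwf never reached 1 FPKM and was not tested, and the values correspond to roughly 60.4, 45.2, 23.6 and 3.8 reads. Of the endothelial markers, Cdh5, the endothelial cadherin, was listed at 0 in 3 libraries and had 0.0282 FPKM in 5-FU recipient 1, while Pecam1 had 22.8 and 20.7 FPKM in the control pair and 15.2 and 16.4 in the 5-FU pair. The 15 markers summed to 97.4 and 101.6 FPKM in the control pair and 90.3 and 94.6 in the 5-FU pair, with Egfl7, Stab2 and Pecam1 the most abundant. The 6 that were not tested, Cdh5, Kdr, Sox18, Cldn5, Plvap and Flt4, stayed below 1 FPKM in every library. Of the 9 tested, 7 had negative and 2 positive estimates, with a median of −0.44, and 7 did not pass. Egfl7 rose by 1.72 and Stab2, a scavenger receptor of sinusoidal endothelium, fell by 1.65 on the log2 scale (adjusted p = 0.014 and 0.028 in limma). These calls did not hold in 2 and 4 of the 14 alternatives. Within the near-even sums the 2 genes thus moved in opposite directions. Egfl7 had 9.80 and 15.5 FPKM in the control pair and 38.3 and 48.0 in the 5-FU pair. Stab2 had 35.8 and 35.4 FPKM in the control pair and 16.3 and 6.81 in the 5-FU pair. The part of endothelial cells in the Vwf values was not tested.

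Itga2b and Itgb3 encode the αIIb and β3 chains of the platelet fibrinogen receptor. αIIb, known as CD41, also marks early hematopoietic progenitors. Itga2b, on chromosome 11 at 102453297 to 102470122, had 14.0 and 10.7 FPKM in the control pair and 6.80 and 11.8 in the 5-FU pair. 5-FU recipient 1 was the lowest of the 4 and 5-FU recipient 2 lay between the controls, so the groups overlapped. The log2 fold change was −0.41 (SE 0.31, adjusted p = 0.41 in limma), with a fold interval of 0.454 to 1.25. Itgb3, on the same chromosome at 104608000 to 104670476, stayed far lower, at 0.771 and 0.112 FPKM in the control pair and 0.249 and 0.358 in the 5-FU pair. The control pair enclosed both 5-FU values, and Itgb3 was not tested.

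Gp9 and Gp1bb encode GPIX and GPIbβ, the small subunits of the receptor for von Willebrand factor. Gp9, on chromosome 6 at 87778072 to 87779768, had 14.9 and 10.6 FPKM in the control pair and 7.25 and 12.7 in the 5-FU pair. As for Itga2b, 5-FU recipient 1 was the lowest and 5-FU recipient 2 fell between the controls (log2 fold change −0.35, SE 0.32, adjusted p = 0.50 in limma). The ratio of Itga2b to Gp9 was 0.942 and 1.01 in the control pair and 0.938 and 0.931 in the 5-FU pair, so the 2 genes varied nearly in parallel. Gp1bb, on chromosome 16 at 18620317 to 18622403, had 1.67 and 0.697 FPKM in the control pair and 1.02 in 5-FU recipient 2, and was listed at 0 in 5-FU recipient 1. The groups overlapped (log2 fold change −0.58, SE 0.45, adjusted p = 0.41 in limma). Gp1bb overlaps Sept5 on the same strand in the annotation, and reads of the 2 genes may have been split between them, so its value is uncertain. Sept5 had 0.950 and 2.47 FPKM in the control pair and 0.444 and 0.0606 in the 5-FU pair. Of the other subunits, Gp5 had 4.99 and 5.06 FPKM in the control pair against 1.18 and 2.97 in the 5-FU pair (log2 fold change −1.03, adjusted p = 0.099 in limma). Gp1ba, the von Willebrand factor binding chain, stayed between 0 and 0.338 FPKM.

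Clec1b and Treml1 encode the other surface receptors. Clec1b is CLEC-2, the C-type lectin-like receptor of platelets for podoplanin, on chromosome 6 at 129397297 to 129409335. It had 53.1 and 43.1 FPKM in the control pair and 22.9 and 16.2 in the 5-FU pair. Both 5-FU libraries lay well below both controls, and the log2 fold change was −1.27 (SE 0.24, 95% interval −1.83 to −0.71, adjusted p = 0.020 in limma). Lower values in both 5-FU libraries than in both controls occurred in 30.7% of all tested genes, and higher values in both in 31.4%. The direction of Clec1b was the same in all 14 alternatives tried, from −1.51 to −1.03. The call was lost in 3 of them: without control replicate 1 (−1.12, adjusted p = 0.16), without control replicate 2 (−1.42, adjusted p = 0.093) and with no filter on low values (−1.27, adjusted p = 0.087). The adjusted p ranged from 0.00055 to 0.16 over all 14. The ratio of Clec1b to Pf4 within a library was 0.558 and 0.501 in the control pair and 0.255 and 0.184 in the 5-FU pair. Whether the 2 genes changed by different amounts was not tested. The end of Clec1b overlaps Clec9a on the same strand, which had 1.30 and 1.14 FPKM in the control pair and 0.428 and 0.764 in the 5-FU pair.

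Summed macrophage markers were also lower in both 5-FU libraries. The 14 markers summed to 22290 and 24600 FPKM in the control pair and to 17750 and 10530 in 5-FU animals 1 and 2. Of the 14, 3 fell (Csf1r, Mrc1 and Spic, picked out after their values were seen), 0 rose and 11 did not pass, while at an unadjusted p under 0.05 the numbers were 10 lower and 0 higher, and the median log2 fold change was −0.96. Marco, a scavenger receptor, had the opposite sign, with 13.8 and 9.51 FPKM in the control pair and 27.5 and 14.5 in the 5-FU pair (0.75, adjusted p = 0.18 in limma). Vcam1, C1qb and Slc40a1 were the most abundant: Vcam1 had 5037 and 5245 FPKM in the control pair and 3756 and 1882 in the 5-FU pair, and Slc40a1, the iron exporter, had 3170, 4100, 4377 and 2380 in that order. Their part in the Clec1b result was not tested. Over the same libraries Pf4 stayed between 86.0 and 95.2 FPKM.

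Treml1 encodes TLT-1, a receptor of platelet granule membranes, on chromosome 17 at 48359916 to 48367176. It had 2.19 and 1.24 FPKM in the control pair and 0.843 and 0.787 in the 5-FU pair, with no overlap. The difference did not pass (log2 fold change −0.56, SE 0.34, adjusted p = 0.30 in limma). Treml1 met the filter through its control libraries alone, and its values correspond to roughly 8.9 to 19.1 reads.

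Nfe2 encodes p45 NF-E2, the transcription factor that megakaryocytes need to release platelets and that erythroid cells use as well. It lies on chromosome 15 at 103248212 to 103258403. Nfe2 had 83.3 and 66.3 FPKM in the control pair and 66.1 and 75.7 in the 5-FU pair. The groups overlapped, the highest value was 1.26 times the lowest, and the log2 fold change was −0.07 (SE 0.20, adjusted p = 0.85 in limma) with a fold interval of 0.685 to 1.32. Among the erythroid markers 9 of 11 tested fell and 0 rose, with a median of −2.31, and their sum went from 1033 and 1096 FPKM to 360.2 and 512.5. Most of the 5-FU sums was Car2, which did not pass. It had 509.7 and 393.4 FPKM in the control pair and 299.1 and 441.7 in the 5-FU pair. The part of erythroid cells in the Nfe2 values was not tested. Its small Maf partners did not pass: Mafg had a log2 fold change of −0.23 and Mafk of −0.04 (adjusted p = 0.58 and 0.95 in limma).

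**Figure D2:**
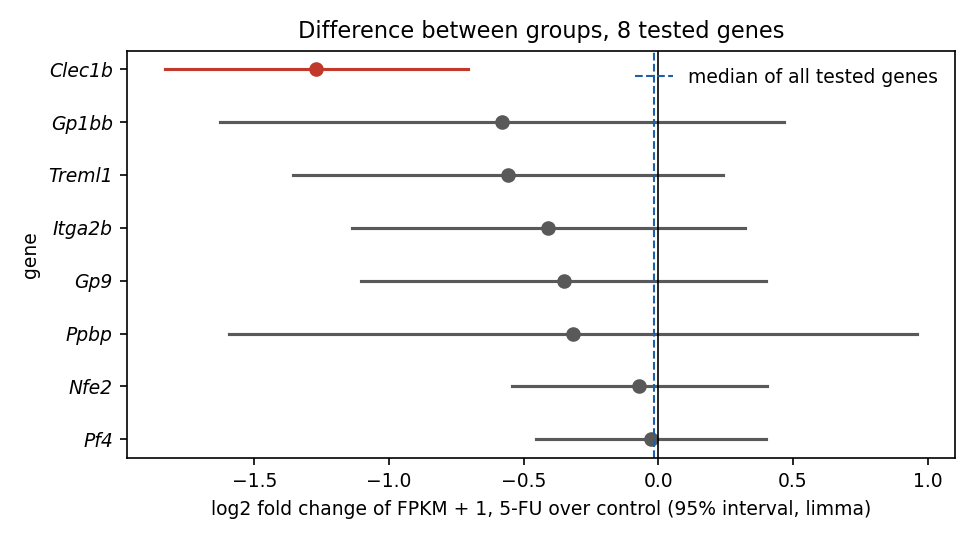
Log2 fold change of FPKM + 1, 5-FU over control (x axis), for the 8 tested genes (y axis), with points for the estimate and bars for limma's 95% interval over 2 and 2 libraries. Clec1b, at −1.27, is the gene whose interval does not reach 0, and the dashed line is the median of all tested genes at −0.015.

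The 8 estimates were all negative, with a median of −0.38, against 5835 negative of 11496 and a median of −0.015 over all tested genes. This count is a description, since the sign of Pf4, Nfe2, Gp9 and Ppbp turned when 1 library was left out and Treml1 passed the filter through 1 group. The libraries within a group differed as well. Control recipient 1 was above control recipient 2 for all 10 genes, tested or not, while 49.9% of all tested genes were higher there. Of the 89 other tested genes of the lineage, described below, 54 (60.7%) were higher there. Kit, the stem cell factor receptor used in the donor sort, went the same way with 102.8 and 65.5 FPKM, and 66.2 and 69.5 in the 5-FU pair (log2 fold change −0.27, adjusted p = 0.49 in limma). Other stem and progenitor markers did not all share that order: Cd48 had 325.5 and 364.7 FPKM in the control pair. Ly6a, the Sca1 gene and also used in the donor sort, had 18.7 and 17.0 FPKM in the control pair and 32.5 and 54.0 in the 5-FU pair, and was the 1 marker of that list to pass (1.19, adjusted p = 0.032 in limma). The 8 mast cell and basophil markers summed to 450.0 and 22.9 FPKM in control animals 1 and 2 and to 15.9 and 41.9 in the 5-FU pair. Mcpt8 and Prss34, basophil proteases, had 149.6 and 238.6 FPKM in control recipient 1 against 2.58 and 1.24 in control recipient 2. Cma1 and Tpsb2, mast cell proteases, were listed at 0 in all 4 libraries. The part of these cells in the order of the control libraries was not tested. Among 5-FU libraries, recipient 1 was above recipient 2 for 4 of the 10 genes (47.9% of all tested genes).

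**Figure D3:**
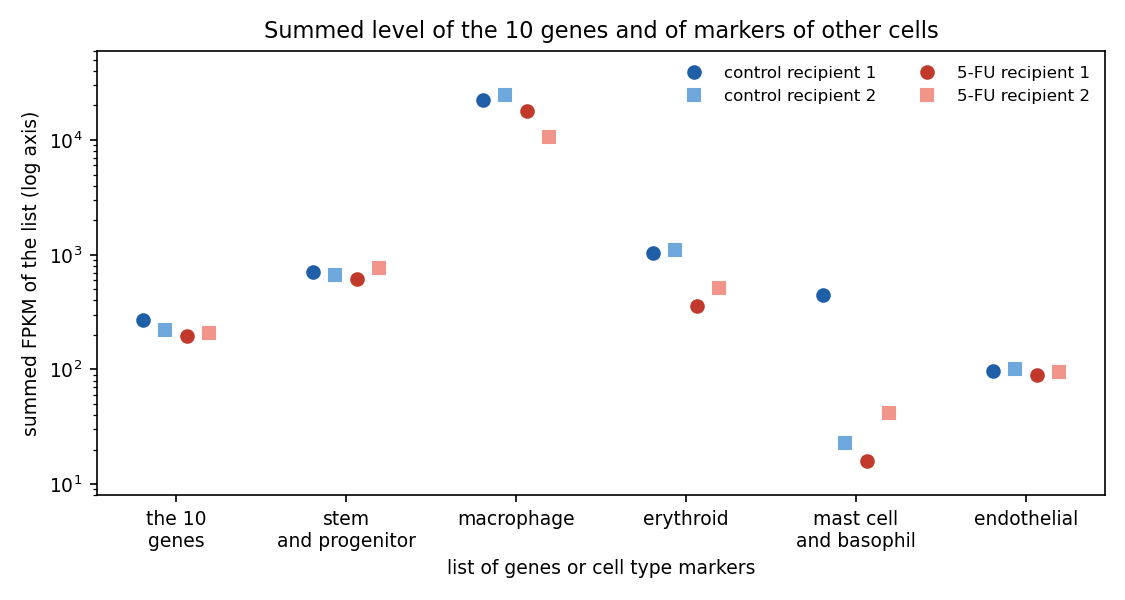
Summed FPKM (y axis, log scale) of the 10 genes and of 5 lists of cell type markers (x axis), with 1 point per library. The sums of the 10 genes run from 194.3 to 267.8, sums of macrophage and erythroid markers are lower in both 5-FU libraries, and mast cell and basophil markers stand out in control recipient 1.

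The genes nearest in pattern were found by the Euclidean distance of log2(FPKM + 1) values, centred on each gene's mean, over the 4 libraries. For Itga2b the nearest were Slfn8 (distance 0.0641), P4htm (0.0651) and Gp9 (0.0909). For Pf4 they were Zmynd11 (0.00925), Dcdc2c (0.0154) and Tmod3 (0.0242). With 4 libraries many genes have a like pattern, and this is a description of these libraries.

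Other genes of the lineage were taken from 5 lists that do not hold the 10 genes. Of 101 matched genes 89 were tested, 7 rose, 5 fell and 77 did not pass, so 7.87% rose and 5.62% fell, close to the 8.23% and 4.67% of all tested genes. The median log2 fold change was −0.06. No granule protein or clotting factor passed (0 of 14 tested in limma, with 0 at an unadjusted p under 0.05). Cd63, a granule membrane protein, had 756.2 and 994.3 FPKM in the control pair and 785.7 and 550.0 in the 5-FU pair, and the granule fusion protein gene Vamp8 stayed between 412.2 and 482.0. P-selectin (Selp) was under 1 FPKM in every library.

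Among surface receptors 2 of 18 tested rose, 1 fell and 15 did not pass. P2ry12, an ADP receptor of platelets that some tissue macrophages also carry, had 30.9 and 31.1 FPKM in the control pair and 7.31 and 4.96 in the 5-FU pair (log2 fold change −2.18, SE 0.26, adjusted p = 0.0079 in limma). F2rl3, the thrombin receptor PAR4, went the other way, from 7.54 and 3.63 to 13.3 and 17.1 FPKM (1.36, SE 0.34, adjusted p = 0.044). Cd36, a scavenger receptor, had 42.7 and 50.1 against 103.8 and 73.0 FPKM (0.90, SE 0.23, adjusted p = 0.044). The calls did not hold in 8 of the 14 alternatives for F2rl3, 7 for Cd36 and 1 for P2ry12. Fcer1g, the FcRγ chain shared with myeloid cells, had 2349 and 2427 against 1413 and 1176 (adjusted p = 0.075), and Itgb1, the integrin β1 chain, had 89.0 and 92.9 against 81.7 and 81.7. Gp6, the collagen receptor, was listed at 0 in all 4 libraries.

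Of 18 tested signalling genes and enzymes 3 fell, 1 rose and 14 did not pass, with a list median of −0.35. Ptgs1, the cyclooxygenase of platelets, had 131.7 and 140.0 FPKM in the control pair and 80.2 and 44.6 in the 5-FU pair (−1.17, SE 0.28, adjusted p = 0.036 in limma). Rgs10, a regulator of G protein signalling, went from 49.8 and 50.5 to 26.9 and 24.05 FPKM, and Lyn, a Src family kinase, from 173.1 and 153.0 to 99.9 and 65.2. Dok2, an adaptor protein, rose from 21.6 and 22.6 to 36.8 and 54.6 FPKM. Tbxas1, thromboxane synthase, had 239.6 and 266.0 against 179.2 and 92.2 FPKM and did not pass (adjusted p = 0.076), nor did Rap1b, the small GTPase of integrin activation, at −0.45. Lyn and Ptgs1 are also read in macrophages, whose summed markers were lower in the same libraries. The calls of Ptgs1, Lyn and Dok2 did not hold in 5 of the 14 alternatives each and that of Rgs10 in 4. The part of macrophages in the Lyn and Ptgs1 values was not tested.

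Genes of platelet production and the cytoskeleton gave 3 higher and 1 lower of 17 tested, with 13 not past. Tuba8 had 5.64 and 5.52 FPKM in the control pair and 19.8 and 22.5 in the 5-FU pair (1.75, SE 0.24, adjusted p = 0.011 in limma), and Tuba4a had 58.0 and 48.1 against 103.1 and 156.5. Both encode alpha-tubulins. Ccnd3, cyclin D3, rose from 54.6 and 51.7 to 87.2 and 112.2 FPKM, and Actn1, the actin crosslinker alpha-actinin 1, fell from 95.4 and 109.2 to 63.1 and 43.2. These calls did not hold in 5 of the 14 alternatives for Actn1, 4 each for Tuba4a and Ccnd3, and 3 for Tuba8. Tubb1, the beta-tubulin of platelets, was listed at 0 in 3 libraries and had 1.15 FPKM in control recipient 2.

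All 22 transcription factors of the list were tested, and 1 rose, 0 fell and 21 did not pass. At an unadjusted p under 0.05, 4 were higher and 3 lower in limma, against 3607 of all 11496 tested genes in either direction. Gfi1b, a repressor needed in megakaryocytes and erythroid cells, had 8.25 and 9.23 FPKM in the control pair and 17.2 and 25.4 in the 5-FU pair (1.17, SE 0.27, adjusted p = 0.031 in limma), a call that did not hold in 4 of the 14 alternatives. Gata1, which drives both lineages, had 7.98 and 5.87 against 2.47 and 4.05 FPKM and did not pass (−0.91, SE 0.32, adjusted p = 0.10). Its cofactor gene Zfpm1 had 6.47 and 4.61 against 7.45 and 10.1 (adjusted p = 0.22). Lmo2, a scaffold of hematopoietic transcription complexes, was the most abundant, between 243.4 and 334.2 FPKM with overlapping groups, and Cbfb, the partner of RUNX proteins, had 62.4 and 50.2 against 80.4 and 100.003 (adjusted p = 0.075). Fli1 and Runx1 had log2 fold changes of 0.09 and −0.20 (adjusted p = 0.83 and 0.59).

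**Figure D4:**
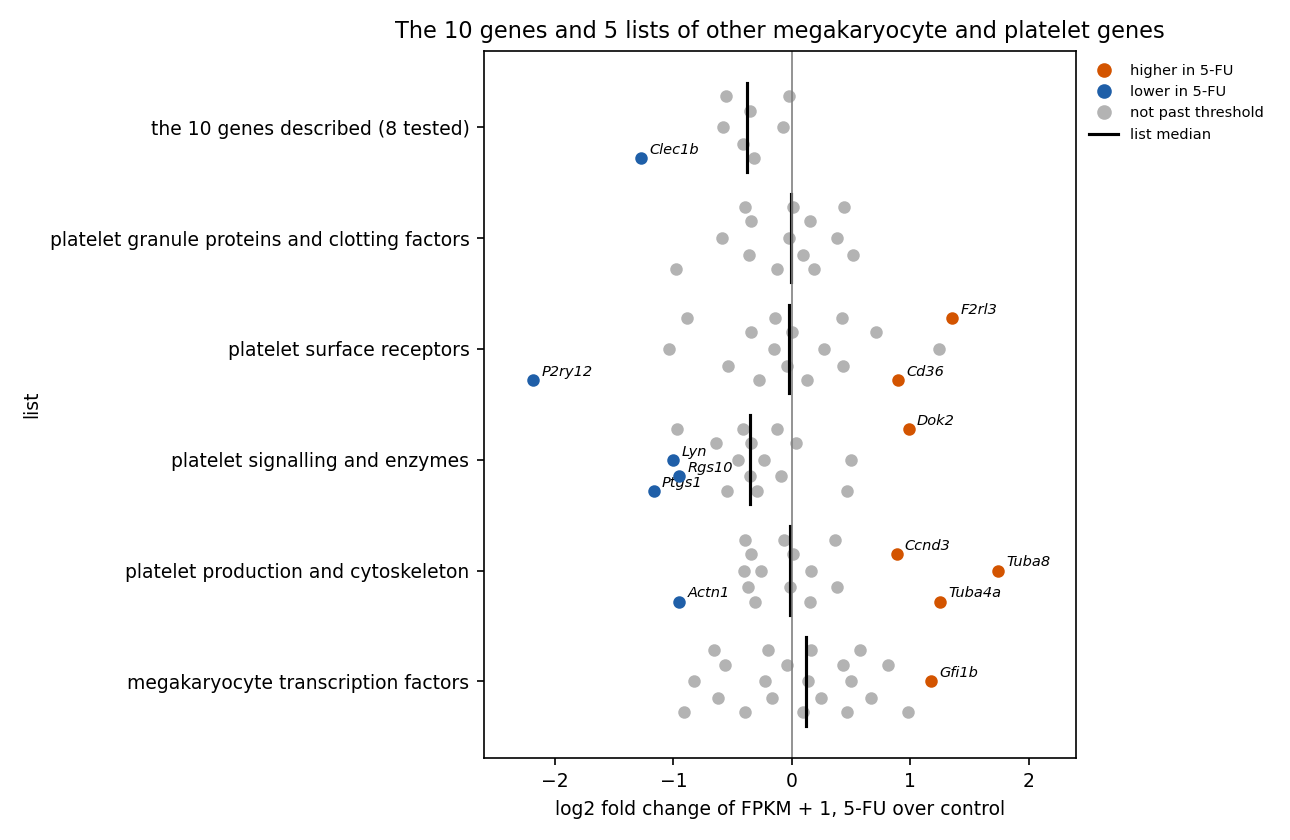
Log2 fold change of FPKM + 1, 5-FU over control (x axis), for the 10 genes described and for 5 lists of other megakaryocyte and platelet genes (y axis, each row spread vertically for legibility), with 1 point per tested gene and a black bar at each list median. Points past the threshold are coloured and named: 7 of the 89 tested list genes are higher and 5 are lower. The medians of the 5 lists lie between −0.35 and 0.12, and that of the 8 tested among the 10 genes is −0.38.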

How the data were processed

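RNA-seq was deposited for 4 libraries, 2 per group, with cDNA made by a SMART-Seq low-input kit from total RNA and single reads of 75 bp, per the labels. Per the submitters' processing notes, the authors used TopHat2 2.0.13, Bowtie2 2.2.3 and SAMtools 0.1.19 on mm10 and then Cuffnorm 2.2.1, which gives FPKM scaled between libraries, the unit of the deposited values. Not given in the sources used here are the scaling setting, annotation and depth. The column headers of the 5-FU libraries name another day than the file names, and groups and times follow the labels. FPKM summed to 678222 to 762107 per library.

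The 10 genes, the lists and the tests were chosen with earlier results of these data known. FPKM with a pseudocount of 1 were tested with limma 3.58.1 in R 4.3.3 (eBayes with a mean-variance trend, group as the only term, two-sided, residual degrees of freedom 2 and prior 5.62) where 2 or more libraries reached 1 FPKM, with Benjamini-Hochberg adjustment over all tested genes and a threshold of 0.05. In 10 runs on simulated data the fit recovered 82.3% of planted log2 changes of 1 and called 0.0699% of unchanged genes. The simulated noise depended on mean level alone, and changes were planted in genes of higher level. Genes that vary more than others of their level were thus not represented, and recovery in the real data may be lower. Each library is 1 recipient by the labels. The p-values rest on the spread between these, drawn by eBayes towards a spread shared by tested genes of like level. Alternatives tried were a pseudocount of 0.1 or 5, a filter at 5 FPKM or none (genes above 0 in any library), scaling by quantiles, to TPM or by median ratios, no trend, robust eBayes, the replicate number as a block, and leaving out each library. Of the 5 lists, 101 genes matched, 5 of them by a RefSeq synonym, and 1 did not.

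What 1 read is worth was estimated from FPKM times transcript length in 6231 genes with 1 transcript longer than 1500 bp, where low values fell on whole multiples. This gave sizes of 7070000, 7330000, 8620000 and 9170000 reads for control recipients 1 and 2 and 5-FU recipients 1 and 2. These are sizes after scaling and may differ from the depth, since the scaling setting is not given. Read numbers of a gene take its longest GENCODE M21 transcript and are rough. Coordinates are GENCODE M21 (GRCm38, to which mm10 corresponds), and promoter sequences are from RefSeq (GRCm38.p6), with motifs chosen after the sequences were seen. Figures were drawn with matplotlib 3.10.9.

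Named genes were all 10 genes, from each list up to 4 past the threshold and the 2 most abundant, from each marker list the 3 most abundant, and Kit. The genes Gp5, Gp1ba, Gp6, Selp, Tubb1, Mafg, Mafk, Gata1, Zfpm1, Fli1, Runx1, Cdh5, Marco, Ly6a, Cma1 and Tpsb2 were added after their values were seen, as were Clec9a and Sept5, which overlap 2 of the 10. Slamf1, Fgd5, Kdr, Sox18, Cldn5, Plvap and Flt4 were also named after their values were seen. Marker genes that the rule takes and the text does not describe are counted in their lists.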

Additional observations from a re-analysis of the deposited data

How the results depend on the processing

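Over all tested genes the 946 higher and 537 lower became 3 and 4 with no filter and 548 and 299 with no trend, and ranged from 88 to 2122 higher and from 38 to 1876 lower when 1 library was left out. The low ends came without control replicate 1 (88 and 38) and the high ends without 5-FU replicate 1, where the remaining single library is taken to vary as much as the other pair. Of the 10 genes, 1 was lower and 0 higher in most alternatives; 0 were lower with no filter (2 at an unadjusted p under 0.05, in limma) and 0 to 1 when a library was left out, 0 without either control replicate (at an unadjusted p under 0.05, 5 were lower without 5-FU replicate 2 and 1 without each of the others). The 7 higher and 5 lower of the other lineage genes became 0 and 0 with no filter (11 and 13 unadjusted) and 1 and 1 with no trend. With quantile scaling 4 were higher, and with TPM scaling 2 were lower. Leaving out 1 library gave 0 to 16 higher and 1 to 14 lower, with 0 and 1 without either control replicate, 16 and 14 without 5-FU replicate 1 and 8 and 8 without 5-FU replicate 2. The cause was not tested.

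With 1 library left out, the log2 fold change turned sign for Pf4 (−0.10 to 0.045), Nfe2 (−0.23 to 0.092), Gp9 (−0.72 to 0.015), Ppbp (−1.15 to 0.52), Kit (−0.59 to 0.048), Lmo2 (−0.018 to 0.30), Slc40a1 (−0.60 to 0.28) and Mcpt8 (−3.84 to 1.56), none of which had passed. Vwf, not tested otherwise, had −0.64 with no filter (adjusted p = 0.14) and −0.83 with TPM scaling (adjusted p = 0.22).

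The replicate numbers pair no animals in the labels. With the number as a replicate block 855 genes were higher and 539 lower, 1 of the 10 was lower, and 7 and 5 of the other lineage genes were called. Deviations of same-numbered libraries from their group means had a weak negative correlation over 11496 genes (r = −0.16). With crossed pairing, added after seeing the data, 1686 genes were higher and 1365 lower. In that fit 1 of the 10 was lower, and 10 and 10 of the other lineage genes were called. In all 4 libraries 5 of the 10 genes lay below 2.2 FPKM, at roughly 0 to 60.4 reads.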
